A study of Mus musculus with 8 samples.

Results

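The livers of Abcb4 knockout mice given norUDCA for 4 weeks were compared with the livers of untreated Abcb4 knockout mice. The comparison used 4 of the 8 arrays of the study, taken by the treatment in the labels: 2 arrays of the treated group and 2 of the untreated group. All mice were male FVB/N animals aged 3 months, and all 4 compared arrays carried RNA of the Abcb4 KO genotype, so the knockout itself was shared by both groups. The other 4 arrays were 2 of untreated wild-type mice (WT) and 2 of knockout mice given norUDCA for 3 days. They entered the fit so that all 4 groups shared an estimate of the spread, and their values are given beside those of the compared groups. The labels give no dose or route of norUDCA. They give 4 weeks for the treated group, whereas the headers of its 2 scanner files give 14 days, and this was not settled here.

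Abcb4 encodes the transporter of the hepatocyte's canalicular membrane that moves phosphatidylcholine into bile. In bile, phospholipid packs bile acids into mixed micelles. Without it, bile acids reach the epithelium of the bile ducts unbuffered, and mice that lack the gene are used as a model of sclerosing cholangitis, with duct injury, proliferation of ductular cells and fibrosis around the ducts. NorUDCA, norursodeoxycholic acid, is a homologue of ursodeoxycholic acid with a shortened side chain. It resists conjugation in the liver, passes back and forth between the bile ducts and hepatocytes, and stimulates bile flow rich in bicarbonate.

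Each array measured oligo(dT)-primed, digoxigenin-labelled cDNA of liver RNA by chemiluminescence in a single channel. A probe is called detected where its signal was at least 3 times the noise of its spot. Of 33012 gene probes, 47.4% and 40.9% were detected on the untreated knockout (KO) arrays and 46.4% and 47.1% on the 4-week arrays, against 33.3% and 41.4% on the WT arrays, of which the second lay within the range of the knockout arrays. The WT arrays stood apart in 2 other measures. Their positive control spots were dimmer, with medians of 1691 and 2062 against 6104 to 7913 on the 6 knockout arrays, and the first principal component, with 42.1% of the variance, separated them from the rest. The 4-week arrays correlated with each other at r = 0.982 across 14729 probes and the KO arrays at r = 0.967. No probe could be matched to Abcb4, so the knockout was not checked on these arrays. Mup1, which encodes a major urinary protein secreted by hepatocytes, lay within the brightest 0.076% of probes on each of the 8 arrays. The array brightness and the genotype cannot be told apart in values set against WT. The titles number the samples within each group but do not say whether each was a mouse of its own. The p-values therefore reflect the sample-to-sample spread, some of which may be technical.

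Of the gene probes, 14143 were detected on both KO arrays or on both 4-week arrays, and 11766 of these were detected on all 4. A further 488 were detected in both 4-week samples but in no KO sample, and the reverse held for 199. Across the 14143 probes the log2 difference, 4 weeks minus KO, had a median of 0.01, a 5th percentile of -0.77 and a 95th percentile of 1.04. The median size of this difference between means of 2 arrays was 0.265, and its median SE was 0.277. Single arrays of a group differed from each other by a median of 0.293 in KO and 0.236 after 4 weeks. The signals of the groups did not overlap for 45.2% of these probes, with 22.1% higher and 23.1% lower after 4 weeks. For 7.58% they also differed by at least 2-fold in the mean, with 645 probes higher (4.56%) and 427 lower (3.02%).

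Tested with limma over all 14729 probes detected in any group, 13 probes, or 0.0883%, passed an adjusted p of 0.05. Of these, 9 rose (0.0611%) and 4 fell (0.0272%) after 4 weeks. An unadjusted p under 0.05 was reached by 1501 probes, or 10.2%, of which 768 were higher (5.21%) and 733 lower (4.98%). The count of 13 became 42 without the WT arrays, and these 42 included all 13. It became 0 when any single KO, 3-day or 4-week array was left out, with 906 to 1882 probes at an unadjusted p under 0.05. None of the 13 probes carries an identifier that could be matched to a gene name, so they are described by their behaviour, and 4 identifiers of the array's design are given, chosen after the values were seen. The RNA came from whole liver, where fewer cells of a type and less RNA per cell cannot be told apart.

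Among the probes that rose, mCG22565.1 was not detected on either KO array, at log2 signals of 5.63 and 5.33, and read 12.10 and 12.19 after 4 weeks. The difference was 6.67 ± 0.63 (SE, adjusted p = 0.042), or about 101-fold. This fold sets the mean of the bright group against the undetected spots' own signal, or the lowest detected signal of the array where that was higher. It is a point value, not a lower limit. The probe entered the test only through the 4-week group, where both arrays detected it. In WT the probe read 7.36 and 6.33, not detected, and after 3 days 8.57 and 6.72, with 1 array detected. High values were thus found on the 4-week arrays and on no other array, while the direct difference between 4 weeks and 3 days, 4.50 ± 0.63, had an adjusted p of 0.228.

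The identifier mCG115420 is carried by 2 probes, and both rose. The brighter probe read 14.62 and 14.62 in KO and 16.84 and 16.79 after 4 weeks (difference 2.20 ± 0.21, adjusted p = 0.042). The dimmer read 6.88 and 7.72 in KO and 12.22 and 11.73 after 4 weeks (4.68 ± 0.32, adjusted p = 0.018). The groups were clearly separated at both probes, but the size differed, at 4.59-fold and 25.6-fold, so the size of the change in this transcript is not settled by the 2 probes. After 3 days the probes read 16.67 and 16.69, and 12.28 and 12.28, close to the 4-week values (4 weeks minus 3 days, 0.14 ± 0.21 and -0.31 ± 0.32). In WT they read 15.71 and 16.16, and 10.85 and 10.86, above KO and below both treated groups.

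The other 6 probes that rose had differences of 2.38 to 5.65. The probe with the smallest adjusted p of the comparison, 0.012, read 10.35 and 10.13 in KO and 13.94 and 13.94 after 4 weeks, a rise of 3.70 ± 0.18. The brightest had a mean of 19.92 on the 4-week arrays against 15.59 in KO, a rise of 4.33 ± 0.28. Another was not detected on either KO array, at 6.05 and 7.14, and read 12.09 and 12.40 after 4 weeks, 50.3-fold higher as a point value. This probe entered the test only through the treated groups, so its detection there is not a result.

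Among the probes that fell, mCG114037.1 read 10.67 and 10.58 in KO. It was not detected after 4 weeks, at 5.62 and 5.69 (difference -4.97 ± 0.33, adjusted p = 0.018, 31.3-fold lower). It read 7.24 and 7.33 after 3 days and 7.40 and 8.39 in WT. The 4-week arrays were therefore lower than every other array. The probe mCG9751.2 was detected on all arrays. It read 12.34 and 12.25 in KO, 10.66 and 10.52 after 3 days and 9.34 and 9.09 after 4 weeks, against 12.80 and 12.37 in WT (4 weeks minus KO, -3.08 ± 0.22, adjusted p = 0.018). Of the remaining probes that fell, 1 was not detected on either WT array, at 5.59 and 5.51, and read 12.32 and 12.11 in KO and 9.59 and 9.79 after 4 weeks, so that the treated arrays were lower than the untreated ones but far above WT. The other read 9.28 and 9.69 in KO and was not detected after 4 weeks, at 6.19 and 5.51, or after 3 days, while WT was the brightest group.

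**Figure D1:**
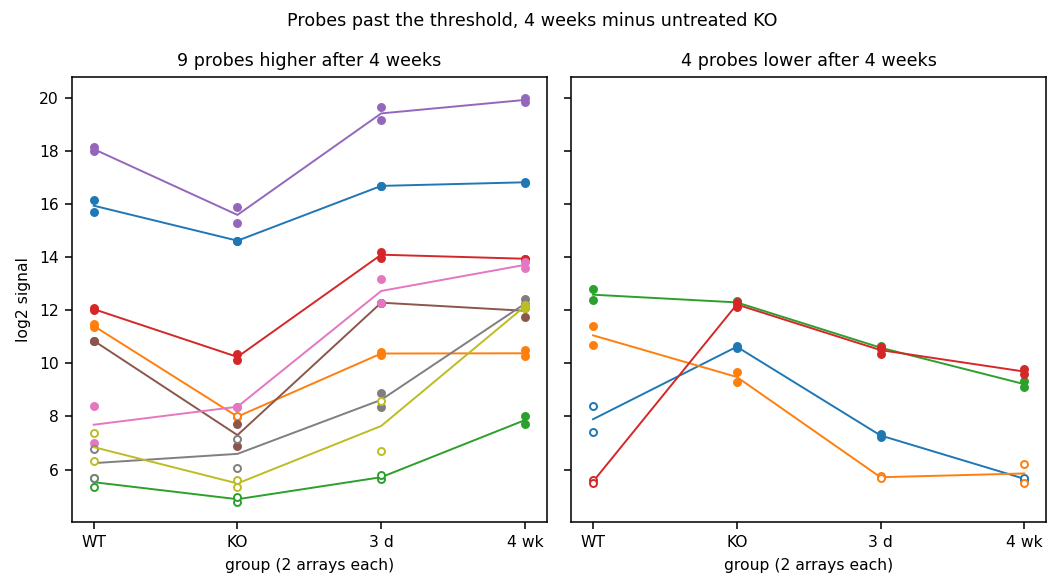
Log2 signal (vertical axis) of the 13 probes that passed an adjusted p of 0.05 for 4 weeks minus KO, in each of the 4 groups (horizontal axis), for the 9 that rose (left) and the 4 that fell (right). Points are single arrays, lines join group means, 1 colour per probe in each panel, and open points mark groups in which not both arrays detected the probe. Of the probes that rose, 6 lay within 1 log2 unit of their 4-week mean after 3 days, the furthest 0.98 lower without overlap. The other 3, not detected in KO, were lower after 3 days than after 4 weeks by 2.15 to 4.50. Each entered the test only through treated arrays, so its detection there is not a result.

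No probe passed an adjusted p of 0.05 between 4 weeks and 3 days of norUDCA, where 1559 probes (10.6%) had an unadjusted p under 0.05 and the smallest adjusted p was 0.152. Differences between the durations are therefore given as values. Comparisons of the 3-day group with KO and of KO with WT use the same 2 KO arrays as the comparison of 4 weeks with KO, so a high or low KO value enters all of them.

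Gene names could be given to 138 of the 14143 probes, representing 136 genes. Among these none passed the adjusted threshold, against 0.0883% of all tested probes, and 20, or 14.5%, had an unadjusted p under 0.05, against 10.2% of the 14143 probes. Of these 20, 7 were higher (5.07%, against 5.23% of all) and 13 lower (9.42%, against 5.02%). The arrays of the groups did not overlap for 59 of the named probes, 26 higher and 33 lower, or 42.8% against 45.2% of all probes. For 11 of them, or 7.97% against 7.58% of all, the difference was also at least 2-fold. Of these 11 genes, 3 were higher (2.17%, against 4.56% of all) and 8 lower (5.8%, against 3.02%). The median difference of the named probes was -0.04. The gene just outside the 2-fold limit was B9d1, 0.997 lower.

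**Figure D2:**
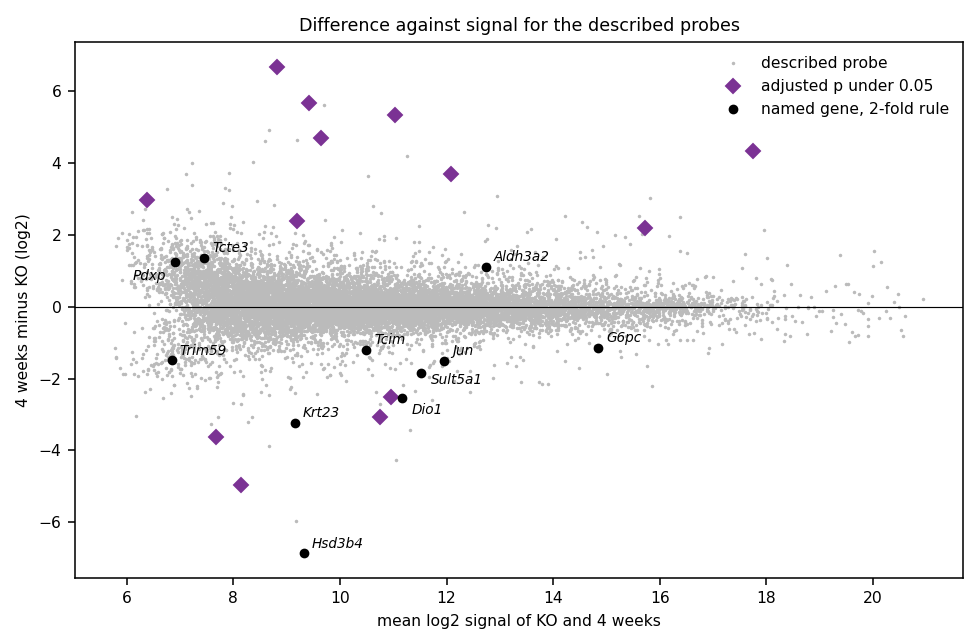
Difference, 4 weeks minus KO (log2, vertical axis), against mean log2 signal of both groups (horizontal axis) for the 14143 probes detected on both arrays of either group. Diamonds are the 13 probes past the adjusted threshold and black points the 11 named genes at least 2-fold apart without overlap. Hsd3b4 has the lowest difference of the plot, while the spread of all probes narrows towards high signals.

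Promoters are shown for 5 of the 8 genes that were lower, chosen after their values were seen, to set the letters before the start site beside the values that follow. Each is given as the 250 bases before the start site in RefSeq on GRCm38.p6, read 5′ to 3′ along the gene's strand. Capitals mark matches, on either strand, to the TATA box TATAAA, the nuclear receptor half-site AGGTCA, the AP-1 sites TGANTCA and TGACATCA and the HNF1 half-site GTTAAT. Jun encodes a subunit of AP-1.
Hsd3b4, chr3:98510568-98510817, minus strand: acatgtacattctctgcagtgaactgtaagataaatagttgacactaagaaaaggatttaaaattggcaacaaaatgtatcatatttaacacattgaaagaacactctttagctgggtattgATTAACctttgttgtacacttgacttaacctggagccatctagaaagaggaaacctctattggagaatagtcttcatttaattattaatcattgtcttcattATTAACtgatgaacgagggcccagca
Dio1, chr4:107307169-107307418, minus strand: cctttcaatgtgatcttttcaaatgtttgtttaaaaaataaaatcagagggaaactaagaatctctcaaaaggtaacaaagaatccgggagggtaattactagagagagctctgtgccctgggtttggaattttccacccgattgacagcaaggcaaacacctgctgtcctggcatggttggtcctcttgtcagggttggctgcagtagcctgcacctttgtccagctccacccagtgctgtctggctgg
Sult5a1, chr8:123158281-123158530, minus strand: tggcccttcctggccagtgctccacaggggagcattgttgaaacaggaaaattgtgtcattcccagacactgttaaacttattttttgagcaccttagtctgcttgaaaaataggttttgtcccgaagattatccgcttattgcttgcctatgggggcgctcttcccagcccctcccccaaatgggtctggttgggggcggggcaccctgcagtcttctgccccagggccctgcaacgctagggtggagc
G6pc, chr11:101367466-101367715, plus strand: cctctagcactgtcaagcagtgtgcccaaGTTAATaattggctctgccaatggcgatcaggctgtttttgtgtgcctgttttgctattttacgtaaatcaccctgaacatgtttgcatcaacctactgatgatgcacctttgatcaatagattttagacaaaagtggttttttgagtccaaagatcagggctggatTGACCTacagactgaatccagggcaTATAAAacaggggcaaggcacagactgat
Jun, chr4:95052223-95052472, minus strand: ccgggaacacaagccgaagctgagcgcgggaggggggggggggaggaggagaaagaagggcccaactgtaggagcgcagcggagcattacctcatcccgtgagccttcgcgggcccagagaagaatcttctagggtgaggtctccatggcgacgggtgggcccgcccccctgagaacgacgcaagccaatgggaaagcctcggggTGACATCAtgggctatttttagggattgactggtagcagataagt
The Hsd3b4 promoter, 1 of 2 listed for this gene, held the HNF1 half-site in reverse, as ATTAAC, 128 and 26 bases before the start. The G6pc promoter held TATAAA at 29 bases, the nuclear receptor half-site in reverse, as TGACCT, at 54 and GTTAAT at 221. The Jun promoter held TGACATCA at 45 bases before the start. Dio1 and Sult5a1 had no match in this window, nor had Krt23, Trim59, Tcte3, Pdxp and Aldh3a2, whose promoters are not shown. A promoter was found for 10 of the 11 genes at least 2-fold apart. Of 32851 promoters in the table, counted over both strands in windows of the same length, 12.4% held TATAAA, 14% AGGTCA, 6.75% TGANTCA, 2.93% TGACATCA and 6.43% GTTAAT.

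Hsd3b4 encodes a hydroxysteroid dehydrogenase of a family of closely similar paralogs in mouse liver and kidney, between which a probe may not distinguish. It read 14.28 and 11.23 in KO and was not detected after 4 weeks, at 5.62 and 6.17. The difference was -6.86 ± 1.18 (adjusted p = 0.146), about 116-fold lower as a point value, and it was the largest of any named gene. The groups were far apart, but the KO arrays were themselves about 3 log2 units apart, so that the difference was -8.39 without the lower KO array and -5.34 without the higher. WT read 15.54 and 15.11, and the 3-day arrays 6.01 and 8.67, with 1 of 2 detected. The treated arrays at both durations were thus below both untreated groups, and 4 weeks minus 3 days was -1.44 ± 1.18 (adjusted p = 0.749).

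Dio1 encodes the liver deiodinase that converts thyroxine to the active thyroid hormone, and its own transcription is induced by thyroid hormone. It read 12.13 and 12.75 in KO and 9.84 and 9.93 after 4 weeks, a difference of -2.55 ± 0.28 or 5.86-fold. The adjusted p was 0.057, the smallest among the named genes and just over the threshold. Over the alternative settings other than leaving out 1 array, the adjusted p ran from 0.0011 with a trended robust prior to 0.252 with no filter on signal over noise. Some of these settings passed the threshold and others did not. Leaving out 1 array gave differences from -2.86 to -2.24. In WT the gene read 14.35 and 14.81 (KO minus WT, -2.14 ± 0.28, adjusted p = 0.026), and after 3 days 10.03 and 9.87. The 3-day and 4-week levels lay together (4 weeks minus 3 days, -0.06 ± 0.28, adjusted p = 0.969), and the order from high to low was WT, KO and both treated groups, with no overlap between these 3 levels.

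Sult5a1 belongs to the cytosolic sulfotransferases, which attach sulfate to small molecules. It read 12.78 and 12.09 in KO and 10.12 and 11.07 after 4 weeks (-1.84 ± 0.55, adjusted p = 0.354). WT read 13.66 and 14.25 and the 3-day arrays 11.65 and 12.97. The 3-day arrays overlapped the KO arrays, and only the 4-week arrays lay below all others.

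G6pc encodes the catalytic subunit of the phosphatase that releases free glucose from hepatocytes. It read 15.50 and 15.35 in KO and 14.59 and 13.94 after 4 weeks, a difference of -1.16 ± 0.35 or 2.23-fold (adjusted p = 0.354). The 3-day arrays, at 14.69 and 13.93, covered nearly the same range as the 4-week arrays. WT read 16.15 and 15.76, the highest group. Mup1, of the same hepatocyte marker list, read 20.07 and 20.48 in KO and 19.79 and 20.13 after 4 weeks (-0.31 ± 0.30, adjusted p = 0.790, positive at 0.06 with no normalization between arrays). The arrays of Mup1 thus overlapped between the groups.

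Krt23 encodes a keratin of epithelial cells that is known from injured and ductular liver. It read 10.53 and 11.01 in KO and 7.76 and 7.29 after 4 weeks, so that both treated arrays lay far below both untreated ones. The difference was -3.24 ± 0.54 (adjusted p = 0.128) or 9.47-fold. WT did not reach detection on either array, at 6.67 and 6.10 (KO minus WT, 4.38 ± 0.54, adjusted p = 0.023). The 3-day arrays read 10.23 and 8.67, between KO and 4 weeks (4 weeks minus 3 days, -1.92 ± 0.54, adjusted p = 0.342). After 4 weeks the gene was detected on both arrays and stood 1.14 ± 0.54 above WT (adjusted p = 0.259).

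Wfdc2 encodes a small secreted protein of duct and airway epithelia with whey acidic protein domains. It did not share the lower values of Krt23. It read 9.20 and 10.19 in KO and 10.41 and 10.35 after 4 weeks, with the treated arrays just above the higher KO array (0.68 ± 0.43, adjusted p = 0.667). WT was not detected, at 6.88 and 6.93, and 4 weeks stood 3.47 ± 0.43 above it (adjusted p = 0.018). After 3 days it read 9.79 and 8.78. Of the 27 genes in the cholangiocyte and ductular list, these 2 had a named probe, so the list holds 1 lower and 1 higher gene, with a median of -1.28 against 0.02 over all tested probes, and no member passed the threshold.

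Jun read 12.94 and 12.48 in KO and 11.16 and 11.23 after 4 weeks (-1.52 ± 0.29, 2.86-fold, adjusted p = 0.167). The 3-day arrays, at 12.93 and 12.63, were as high as KO, and WT, at 11.70 and 11.07, was as low as 4 weeks. KO and 3 days thus formed a high pair and WT and 4 weeks a low pair, without overlap between the pairs. The direct difference between 4 weeks and 3 days was -1.59 ± 0.29 (adjusted p = 0.290), and 4 weeks minus WT was -0.19 ± 0.29.

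Tcim, which encodes a small nuclear regulator of transcription, read 10.68 and 11.50 in KO and 9.85 and 9.94 after 4 weeks (-1.20 ± 0.32, adjusted p = 0.290). WT, at 11.44 and 10.97, and the 3-day group, at 11.34 and 11.16, lay within the range of KO, so that the 4-week arrays alone were low. Trim59, a ubiquitin ligase of the tripartite motif family, read near the detection limit, at 7.66 and 7.53 in KO and 7.26 and 4.93 after 4 weeks, and only 1 of the 2 treated arrays detected it. It entered the test only through the KO arrays, both of which detected it. Its difference of -1.50 ± 0.73 (adjusted p = 0.562) rested on the second 4-week array and was -0.33 without it.

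**Figure D3:**
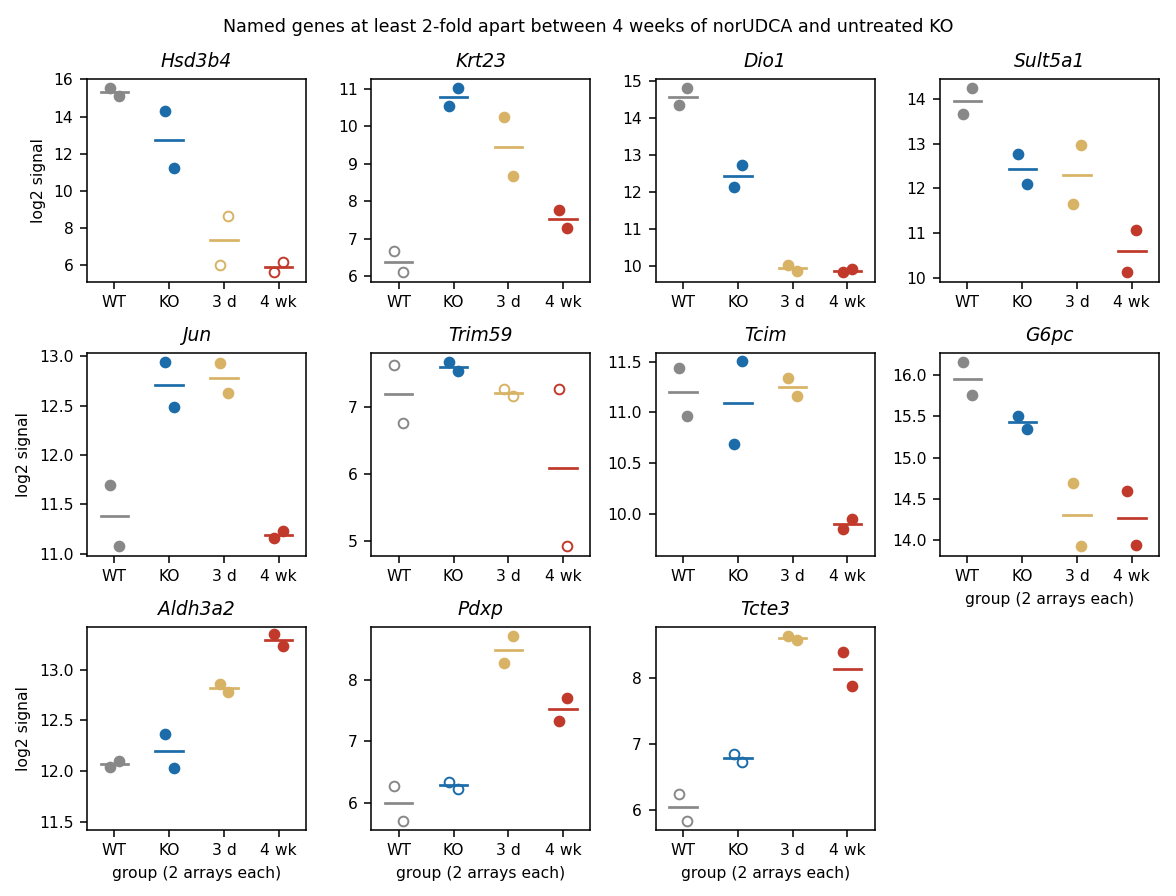
Log2 signal (vertical axes, each with its own range) of the 11 named genes at least 2-fold apart without overlap, in the 4 groups (horizontal axes). Points are single arrays, bars are group means, and open points mark groups in which not both arrays detected the probe. Dio1, G6pc and Hsd3b4 were already low after 3 days, whereas Jun and Tcim were low on the 4-week arrays and not on the 3-day arrays.

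Of the 3 genes that were higher, Aldh3a2 was the only one detected in every group. It encodes the fatty aldehyde dehydrogenase, which oxidises long-chain aldehydes to fatty acids. It read 12.36 and 12.03 in KO and 13.36 and 13.23 after 4 weeks, a difference of 1.10 ± 0.19 or 2.14-fold (adjusted p = 0.147). WT read 12.04 and 12.10 and the 3-day arrays 12.86 and 12.79, so that the order was the untreated groups, 3 days and 4 weeks, and the 3-day arrays overlapped neither neighbour. The step from 3 days to 4 weeks was 0.47 ± 0.19 (adjusted p = 0.463).

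Pdxp, the phosphatase that removes phosphate from pyridoxal phosphate, the active form of vitamin B6, was not detected in KO, at 6.34 and 6.23, and read 7.34 and 7.71 after 4 weeks. The difference was 1.24 ± 0.28 (adjusted p = 0.234), or 2.36-fold. It read 8.27 and 8.71 after 3 days, above the 4-week arrays (4 weeks minus 3 days, -0.96 ± 0.28, adjusted p = 0.349). Tcte3, a dynein light chain best known from testis, was likewise not detected in KO, at 6.84 and 6.72. It read 8.39 and 7.88 after 4 weeks and 8.62 and 8.58 after 3 days (4 weeks minus KO, 1.35 ± 0.25, adjusted p = 0.161, 2.56-fold). Neither gene was detected in WT. Both entered the test only through the treated groups, so their detection there is not a result. For both, the 3-day arrays were the brightest and the 4-week arrays lay between them and KO.

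Plin3, a coat protein of lipid droplets, read 12.76 and 11.89 in KO and 13.22 and 13.17 after 4 weeks (0.87 ± 0.31, adjusted p = 0.420). WT was lower than every knockout array, at 11.12 and 10.82. Pemt, which makes phosphatidylcholine by methylation in hepatocytes, read 15.68 and 15.62 in KO and 15.77 and 15.52 after 4 weeks. Its difference of -0.00 ± 0.18 had a 95% interval from -0.44 to 0.43, and its sign depended on the scaling, at 0.17 with median scaling and 0.34 with none. The lipid synthesis, storage and export list had these 2 tested genes of 43 and the fatty acid oxidation list had Aldh3a2 and Fgf21 of 32, with no call in either.

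Fgf21 encodes a hormone that the liver secretes in fasting and stress. It was not detected on either KO array, at 5.96 and 6.45, and on 1 of 2 arrays after 4 weeks, at 6.17 and 6.70. The difference, 0.22 ± 0.94, was smaller than its error at these levels. In WT it read 12.58 and 9.98.

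Cebpb encodes a transcription factor of the acute phase and of gluconeogenesis and was measured by 2 probes. The brighter read 14.54 and 14.54 in KO and 14.99 and 15.05 after 4 weeks (0.48 ± 0.26, adjusted p = 0.599). The dimmer read 11.89 and 11.95 in KO and 12.69 and 12.58 after 4 weeks (0.71 ± 0.24, adjusted p = 0.403). The probes gave the same order of the groups, with the 3-day arrays, at 16.12 and 15.86 and at 13.59 and 13.37, above the 4-week arrays. For 4 weeks minus 3 days they gave -0.97 ± 0.26 (adjusted p = 0.335) and -0.84 ± 0.24 (adjusted p = 0.345). Gga1, an adaptor of Golgi transport, and Alkbh5, an RNA demethylase, had the same order of KO, 4 weeks and 3 days. In WT, Cebpb read 15.5 and 16.2 at the brighter probe and 13.0 and 13.6 at the dimmer. Gga1 read 10.8 and 10.7 in WT and Alkbh5 12.42 and 12.74. These WT values lay above those of KO and 4 weeks. Gga1 read 9.43 and 9.70 in KO, 10.94 and 10.61 after 3 days and 10.05 and 9.87 after 4 weeks (4 weeks minus KO, 0.39 ± 0.21, adjusted p = 0.591). Alkbh5 read 11.97 and 12.02 in KO, 12.87 and 12.61 after 3 days and 12.30 and 12.35 after 4 weeks (0.34 ± 0.20, adjusted p = 0.628). Stat5b, which transmits growth hormone signals, stood at 10.98 and 10.71 in KO and 11.09 and 11.12 after 4 weeks (0.25 ± 0.31).

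The chemokine genes Ccl21a and Ccl21b attract lymphocytes and dendritic cells and are expressed by lymphatic endothelium. They are near-identical copies, so the 3 probes may read the same transcripts. At the Ccl21a probe KO read 9.30 and 10.90 and 4 weeks 7.58 and 9.40, a mean difference of -1.61 ± 0.84 (adjusted p = 0.581). The Ccl21b probes differed by -1.71 ± 1.15 and -1.81 ± 0.83 (adjusted p of 0.688 and 0.539). Single arrays decided these values: the Ccl21a difference was -0.70 without the first 4-week array, -2.51 without the second, -2.41 without the first KO array and -0.81 without the second. Leaving out 1 array moved the Ccl21b probes between -0.76 and -2.66 and between -0.76 and -2.85. At all 3 probes the brighter 4-week array overlapped the dimmer KO array, and the replicates of KO and of 4 weeks were over 1 log2 unit apart. Both Ccl21b probes were detected on only 1 of 2 arrays after 4 weeks. At the Ccl21a probe WT read 6.17 and 7.72 and the 3-day arrays 8.19 and 8.58.

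H2-Q8 and H2-Q7 are close relatives among the class I histocompatibility genes. H2-Q8 read 11.46 and 11.83 in KO and 11.19 and 11.16 after 4 weeks (-0.47 ± 0.30, adjusted p = 0.670), against 9.62 and 10.28 in WT. H2-Q7 read 18.21 and 17.52 in KO and 18.00 and 17.82 after 4 weeks, with overlap (0.05 ± 0.26), against 16.54 and 16.66 in WT. Both genes thus stayed above WT after 4 weeks, by 1.22 ± 0.30 (adjusted p = 0.078) and 1.32 ± 0.26 (adjusted p = 0.051), neither past the threshold. Bcl2a1b, a survival factor of leukocytes, overlapped between the groups, at 9.90 and 10.83 in KO and 10.74 and 10.51 after 4 weeks (0.26 ± 0.54). Hba-a1, the alpha globin of red blood cells, read 15.93 and 15.63 in KO and 15.43 and 15.43 after 4 weeks (-0.35 ± 0.86, adjusted p = 0.935, and 0.02 with no normalization between arrays), while WT read 19.04 and 16.17.

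**Figure D4:**
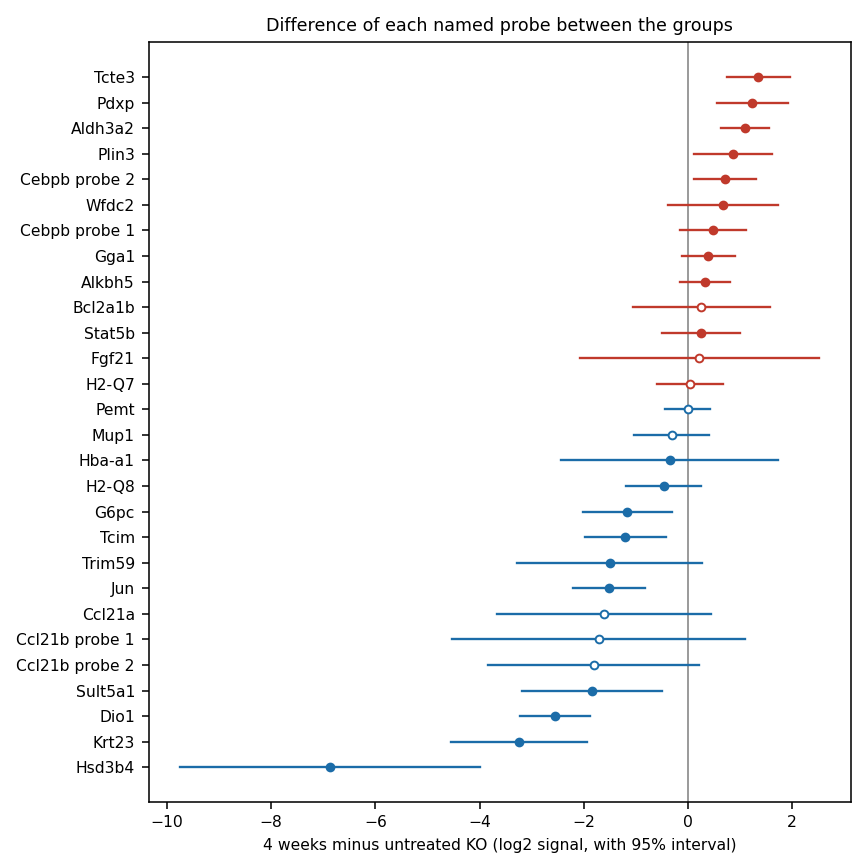
Difference, 4 weeks minus KO (log2 signal, horizontal axis), of the 28 probes of the genes chosen by rule. Lines are 95% intervals of the fit not adjusted for the number of probes. Genes named outside the rule are not shown. Filled points mark probes whose groups did not overlap and open points those that overlapped, with higher values in red and lower values in blue. Hsd3b4, Krt23 and Dio1 lie furthest below 0. The interval of Hsd3b4, from -9.74 to -3.99, is the widest, and those of the Ccl21 probes and of Fgf21 are also wide.

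Outside the rule by which the genes above were chosen, further named probes with an unadjusted p under 0.05 were looked at after their values were seen. Flcn, which encodes folliculin, a regulator of nutrient signalling, read 10.36 and 10.25 in KO and 11.44 and 11.09 after 4 weeks (0.96 ± 0.29, adjusted p = 0.363). Nupr1l, a relative of a stress-induced nuclear protein, was not detected in KO, at 7.05 and 6.98. It read 8.01 and 7.92 after 4 weeks, 1.93-fold higher (adjusted p = 0.411). It entered the test only through the 4-week arrays, so its detection there is not a result. The kinase gene Lrrk1 was lower, at 9.57 and 9.49 in KO and 8.52 and 8.94 after 4 weeks (-0.80 ± 0.26, adjusted p = 0.387). Scg2, a secretogranin, was also lower (-0.63 ± 0.19, 1.55-fold) and was not detected after 4 weeks. It entered the test only through the KO arrays, so its detection there is not a result. Further lower genes were Tceal9 (-0.61), Mydgf, a growth factor of myeloid cells (-0.56), the transcriptional repressor Zbtb18 (-0.52) and Teddm1a (-0.51). None of these passed the adjusted threshold, and their differences were under 2-fold.

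Gene lists of liver biology could be read only in small part. Of 524 genes in 16 lists, 20 had a tested named probe, at most 3 in any list, and the fibrosis, bile acid, cell cycle and stress response lists had none. No list member was called in either direction, against 0.0883% of all tested probes. Of 7 lists of cell type markers, those of hepatocytes (Mup1, G6pc, Dio1), cholangiocytes (Krt23, Wfdc2) and endothelium (Ccl21a) had a named probe and those of stellate cells, macrophages, lymphocytes and neutrophils had none. Whether the share of these cells differed between the groups was not tested.

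The array allowed 2 checks of the probes themselves. Of 38 named probes for olfactory, vomeronasal and taste receptors, which liver does not normally use, 2 were detected on both arrays of either group (5.26%), against 136 of 235 other named probes (57.9%). The other check used 570 identifiers that were measured by 2 probes detected on all 4 arrays. The log2 differences of the 2 probes were a median of 0.172 apart, and of 22 identifiers with a difference of at least 1 at either probe, 20 had the same sign at both. Over all 570 identifiers the 2 differences correlated at r = 0.648. Agreement in sign was counted only for the 22 picked by size, where the probes mostly gave the same direction. The identifier mCG115420 is 1 of these 22, and its probes agreed in direction but differed widely in size. The probes of Cebpb, which does not meet that size, agreed in direction as well.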

How the data were processed

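Liver RNA of 8 samples was measured on Applied Biosystems single-channel arrays, and samples were grouped by their titles. Per the file headers, each scanner file gives a signal, an assay-normalized signal, a signal-over-noise score and flags for each spot. The deposited signal is a linear intensity with background removed, and 107688 of 264096 gene spots are listed at their own noise. The signal over noise is a score used as deposited. The series table is the authors' intensity per probe on a linear scale without centring and matches the assay-normalized signal to within 0.06 at 100% of spots, with column medians from 1.07 to 1.60. How the scanner software made these values is not given in the sources used here.

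Flags of at least 5000 on any of the arrays removed 4153 gene probes, 175 of them bright enough to be tested. The remaining 28859 were log2-transformed and quantile-normalized. Testing covered 14729 probes whose signal over noise reached 3 on both arrays of any of the 4 groups, with limma 3.58.1 (R 4.3.3) over all 8 arrays, 4 residual and 2.13 prior degrees of freedom, and Benjamini-Hochberg adjustment over all tested probes. P-values are two-sided, and SE is the moderated standard error. The fit alone, without normalization or filters, was run on simulated data with known changes, and no result given here rests on it. Folds against undetected spots are point values that do not allow for the noise of those spots or the spread of the arrays. Precision is limited by 2 arrays a group.

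Names came from RefSeq accessions in the files, matched to a RefSeq gene table of GRCm38.p6. This named 311 probes of 305 genes. The 27930 Celera and 4565 GenBank identifiers were not named. Genes described are those whose groups did not overlap with a log2 difference of at least 1, tested genes of 16 lists and 11 genes singled out earlier. The members and lists were chosen with earlier results of these data known. Alternatives covered the normalization, filters, arrays in the fit, offset, prior and replicate block. The replicate numbers did not pair the arrays: deviations of same-numbered KO and 4-week arrays correlated at 0.0487. No batch is given.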

Additional observations from a re-analysis of the deposited data

How the results depend on the processing

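The count of 13 probes past the adjusted p (limma) was 90 with median scaling, 155 with no normalization between arrays and 30 with cyclic loess. It was 8 with signal over noise of 3 on at least 2 of 8 arrays, 28 with both arrays of KO or 4 weeks, 59 with all 8 arrays (6 of the 13 among them) and 0 with no such filter, where 2080 probes had an unadjusted p under 0.05. It was 36 with an offset of 100, 123 with a trended robust prior, 42 without the WT arrays and 0 with a replicate block (1420 unadjusted, smallest adjusted p 0.077). The other 4 settings gave 11 to 16, and with only the 4 compared arrays 7 of the 13 were among 14. Leaving out 1 array gave 0 to 42: 42 without either WT array and 0 without any other. The cause of these shifts was not tested. The median difference of all probes was 0.168 with median scaling and 0.340 with no normalization, against 0.015. Median scaling, then no normalization, the deposited values and no flag filter gave Pemt 0.17, 0.34, 0.11 and 0.0021. With no normalization Hba-a1 was 0.024 and Mup1 0.064. H2-Q7 was -0.0010 without the flag filter. Leaving out 1 array gave -0.039 to 0.487 for Fgf21, -0.20 to 0.73 for Bcl2a1b, -0.30 to 0.39 for H2-Q7 and -0.13 to 0.12 for Pemt. The other 20 of the 26 genes chosen by rule kept their sign in the settings run, and genes named outside the rule were not recomputed. Dim genes such as Trim59, Fgf21 and Pdxp are limited by signal near the noise.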
